A study of Mus musculus with 5 samples.

Results

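The nuclear genes for subunits of the respiratory chain and of ATP synthase were examined in mouse KLS cells (c-Kit+ Lin- Sca-1+), the sorted bone marrow fraction that holds haematopoietic stem cells and multipotent progenitors. Members were all probe sets whose platform annotation gave a single gene symbol beginning with Ndufa, Ndufb, Ndufc, Ndufs, Ndufv, Uqcr, Cox4 to Cox8 or Atp5, or equal to Sdha, Sdhb, Sdhc, Sdhd or Cyc1. Pseudogene symbols and the assembly factors named Ndufaf were left out. This gave 170 of 45037 probe sets, for 83 of 18193 genes. Of these genes, 34 belonged to complex I, 4 to complex II, 9 to complex III, 19 to complex IV and 17 to complex V. Ndufa4 and Ndufa4l2, which were first named as complex I genes, were counted with complex IV, to which their proteins are now assigned.

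RNA was measured on 5 Affymetrix mouse arrays. The 2 control arrays, titled wild type, had the genotype Rb +/+ p130 +/+ p107+/-, so the controls also carried 1 intact copy of p107 instead of a full pair. The 3 deficient arrays had the genotype Rb -/- p130 -/- p107-/- and so, by their labels, lacked all members of the Rb family, which restrain the E2F factors of the cell cycle. A growth protocol given for all samples names recombination of floxed alleles with inducible Mx1Cre at 6 weeks of age, and sorting 2 months later. The labels do not say whether the control mice carried Mx1Cre. Mx1Cre is driven by an interferon-responsive promoter that is active in many cell types, not in stem cells alone. The study hybridised 6 arrays and excluded 1. The labels do not tell separate animals from pools or repeats, so every p-value measures only the spread between these arrays, which may be partly technical.

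Complexes I to IV sit in the inner mitochondrial membrane and pass electrons from NADH and succinate to oxygen. Complexes I, III and IV pump protons as they do so, and complex V, the ATP synthase, uses the proton gradient to make ATP. Quiescent haematopoietic stem cells are known for relying on glycolysis more than their dividing progeny do, while still needing a working respiratory chain to differentiate. Nearly all subunits are made from nuclear genes, and a small set comes from mitochondrial DNA.

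As a check of the whole series, Rbl1, the gene for p107, fell by 3.04 on the log2 scale on its brightest probe set. The adjusted p was 0.0266 over genes and 0.0513 over probe sets (limma). Its dimmer probe sets differed by -0.91, 0.08 and 0.17. Rb1 and Rbl2 differed by -0.36 and -0.46 without passing the threshold and with overlapping groups. Where their probes lie relative to the deleted parts is not given in the sources used here, so the loss of Rb1 and Rbl2 rests on the labels. Median log2 intensity lay between 4.71 and 4.74 on all arrays. Markers of other blood cells differed between the groups. Of 10 mature granulocyte genes 9 fell, such as Ngp, which fell by 6.16, and of 7 plasma and B cell genes 2 fell, such as Igha, which fell by 7.88. Of 9 proliferation genes 3 rose (Bub1, Mki67 and Plk1), and all 9 means were higher in deficient cells. Of the KLS markers measured, Kit, Cd34, Flt3, Cd48 and Slamf1 did not pass the threshold and Procr fell by 1.62. Ly6a, the gene for Sca-1, was not analysed here. Sex-linked genes set 2 arrays apart. Xist read 9.31 in control 2 and 12.42 in deficient 2, against 3.44 to 3.73 on the other 3 arrays. The Y-linked gene Eif2s3y read 3.50 in deficient 2, and 9.81 in both controls and 10.21 and 10.37 in the other deficient arrays. Control 2 thus read high for both genes, while deficient 2 read high for Xist alone. The part of these differences in the values below was not tested. In bulk RNA of sorted cells, fewer cells of a type and less RNA per cell cannot be told apart.

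Promoter sequences of the members with the clearest differences outside the tissue-restricted isoforms are shown first, because the nuclear subunit genes are textbook targets of the factors NRF1, GABP and YY1. The first 4 belong to the non-isoform genes with the smallest p-values, and Atp5k was added after its motif matches were seen. Each run covers 100 bases before the annotated start of the gene and 50 bases from it, 5′ to 3′ on the gene's own strand. Capitals mark motif matches, GCGCATGCG (NRF1), CCGGAAG (GABP, an ETS factor) or AAGATGG (the core of the YY1 motif AAGATGGCG), on either strand. The sequences are RefSeq's, build GRCm38.p6.
Ndufa6, chr15:82354242-82354391, minus strand: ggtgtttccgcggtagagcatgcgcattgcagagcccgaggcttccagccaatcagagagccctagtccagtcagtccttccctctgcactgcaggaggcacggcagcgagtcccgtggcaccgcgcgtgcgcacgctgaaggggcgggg
Uqcrh, chr4:116075021-116075170, minus strand: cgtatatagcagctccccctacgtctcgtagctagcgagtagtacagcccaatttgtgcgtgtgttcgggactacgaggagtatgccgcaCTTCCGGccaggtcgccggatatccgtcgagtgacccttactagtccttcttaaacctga
Atp5e, chr2:174464052-174464201, minus strand: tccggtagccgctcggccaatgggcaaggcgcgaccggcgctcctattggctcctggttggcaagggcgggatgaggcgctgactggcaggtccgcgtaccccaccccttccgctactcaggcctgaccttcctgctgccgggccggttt
Ndufa3, chr7:3617273-3617422, plus strand: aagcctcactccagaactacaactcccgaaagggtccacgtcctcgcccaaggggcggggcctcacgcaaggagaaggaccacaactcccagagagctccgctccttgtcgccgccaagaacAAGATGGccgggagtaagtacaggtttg
Atp5k, chr5:108434350-108434499, minus strand: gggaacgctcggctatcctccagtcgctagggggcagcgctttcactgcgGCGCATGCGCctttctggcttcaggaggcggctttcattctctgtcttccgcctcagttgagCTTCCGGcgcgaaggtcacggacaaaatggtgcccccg

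The Atp5k run held overlapping NRF1 matches, on the palindrome GCGCATGCGC, and a GABP match just after its start. Uqcrh held a GABP match just before its start, and Ndufa3 a YY1 core match within its first transcribed bases. The GABP match of Atp5e began 102 bases before the start, so that it straddles the edge of the run shown and is not in capitals, and Ndufa6 held none of these letters.

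Over windows of 250 bases before to 50 bases after the start, 67 of the 83 member genes had an entry. A GABP match was present in 17 of them (25.4%), against 12.9% of 17492 protein-coding genes. NRF1 was present in 7 (10.4% against 2.61%), the full YY1 motif in 6 (8.96% against 2.14%) and the YY1 core, which contains every full match, in 10 (14.9% against 7.18%). The ERR motif TCAAGGTCA was present in 2 (2.99% against 0.377%). E2F letters (TTTCCCGC, TTTGGCGC or TTTCGCGC) were present in 2 (2.99%), close to the 2.76% of all protein-coding genes. These shares describe letters in a window and were not tested. They do not show that a factor binds.

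Of the 83 subunit genes, 1 fell in deficient cells, 0 rose, and 82 did not pass the threshold. The gene that fell was Cox6a2, the muscle-type isoform of a small subunit of cytochrome c oxidase. This was judged in limma with 1 probe set per gene, the brightest, at Benjamini-Hochberg adjusted p under 0.05 over all 18193 genes. Over all genes, 2.24% passed in either direction and 1.41% as lower. The members' share of 1.2% rests on 1 gene and was close to the 1.41%, so it is no result about the members. At the level of single probe sets, 1 of 170 passed (0.588%), again as lower and again of Cox6a2. Of all probe sets, 0.491% passed and 0.326% did so as lower. For 65 of the 83 genes (78.3%) the 95% confidence interval of the difference lay within 1.5-fold in both directions, which held for 58.6% of all genes. For the other 18, differences of that size were not excluded by the interval.

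**Figure D1:**
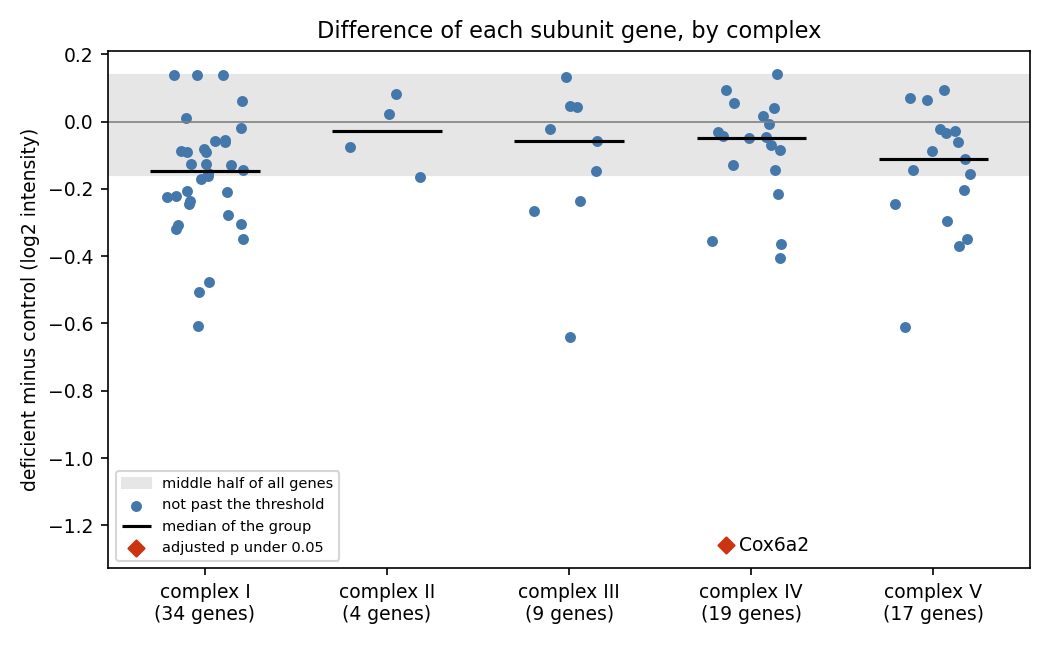
Difference of each of the 83 subunit genes between deficient and control arrays (vertical axis, log2 intensity, deficient minus control) by complex (horizontal axis). Points are genes, the red diamond is the gene past adjusted p under 0.05 (Cox6a2, -1.26), black bars are medians from -0.15 (complex I) to -0.03 (complex II), and the grey band holds the middle quartiles of all genes, -0.16 to 0.14. Most points lie slightly below 0, inside or just under the band.

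The members' differences were small and mostly to the lower side. The median over the 83 genes was -0.11 on the log2 scale, against -0.01 over all genes, and the means of 65 members (78.3%; 51.9% of all genes) were lower in deficient cells. All 3 deficient arrays lay below both controls for 32 members (38.6%; background 18.6%) and above both for 3 (3.61%; background 16.5%). At an unadjusted p under 0.05, 12 genes were lower and 0 higher, where 9.86% and 8.79% of all genes were. These counts come from members chosen with results known and from genes that share arrays, and they carry no test.

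The size of the shift depended on which control array it was measured from. Control 2 read above control 1 for 73 of the 83 genes (88%; background 51.4%), with a median difference of 0.17 between the controls. Control 2 also stood apart from control 1 outside the members, at 9.31 against 3.58 for Xist, 7.26 against 3.79 for the T cell gene Cd3g, 6.70 against 4.45 for the granzyme gene Gzma and 13.61 against 11.11 for the immunoglobulin gene Ighm. Other markers went the other way and read higher in control 1 than in control 2, at 5.62 against 3.82 for the B cell gene Ms4a1. The macrophage and dendritic cell genes H2-Aa and H2-Eb1 read 11.90 against 10.22 and 9.13 against 7.43. The part of these differences in the members' values was not tested. Against control 1, the median member difference was -0.02 for deficient 1, -0.00 for deficient 2 and -0.05 for deficient 3. Against control 2 it was -0.19, -0.19 and -0.21. The deficient arrays differed from each other by medians of -0.03 to -0.00. The median of deficient minus control was accordingly -0.01 without control 2 and -0.20 without control 1. The controls thus lay nearly as far apart as control 2 and the deficient arrays did.

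**Figure D2:**
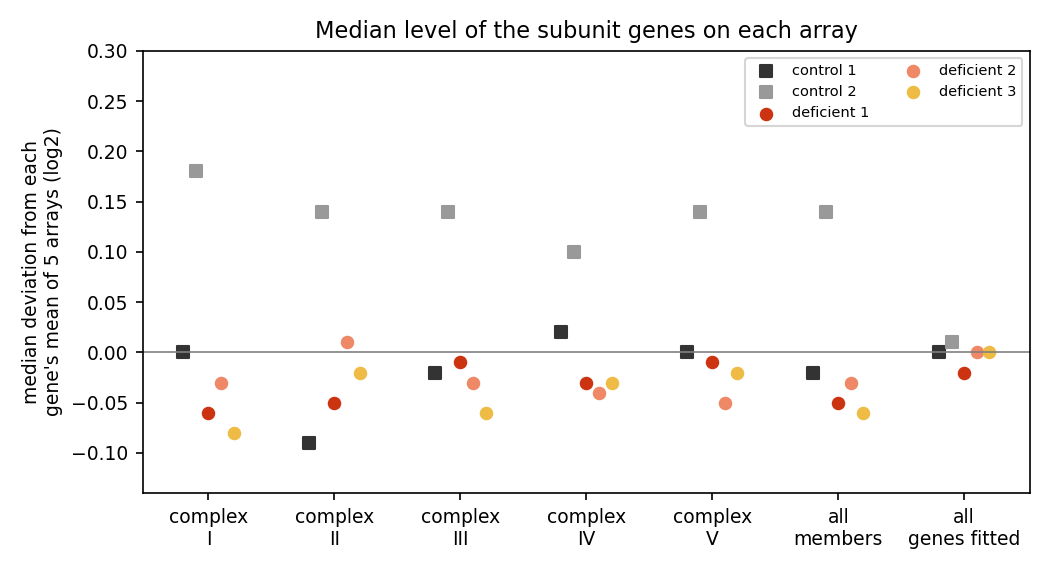
Median level of the member genes on each of the 5 arrays, as the deviation from each gene's mean over the arrays (vertical axis, log2), for the complexes, all members and all genes (horizontal axis). Squares are control arrays and circles deficient arrays; for all members control 2 lies at 0.14, while control 1 (-0.02) lies beside the deficient arrays (-0.06 to -0.03).

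Complex I, which oxidises NADH and reduces quinone, had 34 member genes: 0 rose, 0 fell and 34 did not pass. Its median difference was -0.15, -0.04 without control 2 and -0.25 without control 1. The 28 accessory subunits, which surround the catalytic core, had a median of -0.19, and 25 of them had lower means in deficient cells. The 6 measured core subunits had a median of -0.09 and lower means in 4. Ndufa6, an accessory subunit with an LYR motif that binds the acyl carrier protein, read 10.37 and 10.52 in controls and 9.78, 9.95 and 9.78 in deficient cells. The groups did not overlap, and the difference of -0.61 (SE 0.12) did not pass (limma, adjusted p = 0.0659). Ndufa3, another accessory subunit, read 12.05 and 12.22 in controls and 11.67, 11.51 and 11.69 in deficient cells. All deficient arrays were again below both controls (difference -0.51, SE 0.12, adjusted p = 0.0969). A second bright probe set of Ndufa3 differed by -0.56, and a dim one by 0.00.

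Ndufa7, an accessory subunit of the peripheral arm, was measured by 5 probe sets, which differed by -0.59 to -0.45. Its brightest read 11.73 and 11.50 in controls and 11.16, 11.11 and 11.15 in deficient cells, with no overlap (adjusted p = 0.105). Control 1 was the higher control here, unlike in most members. Ndufs5, an accessory subunit on the intermembrane side, differed by -0.31 (adjusted p = 0.208). A brighter probe set, left out because it shares the pseudogene symbol Ndufs5-ps, differed by -0.08 with overlapping groups. In the catalytic core, the 3 quinone-reducing genes differed by -0.16 to -0.13. Ndufv1, whose protein binds NADH and the flavin, read 12.44 and 12.47 in controls and 12.59, 12.64 and 12.55 in deficient cells. It was the only complex I gene with all deficient arrays above both controls, by 0.14 (SE 0.10, adjusted p = 0.58). Ndufs1, the large iron-sulphur subunit, also differed by 0.14 (adjusted p = 0.711), with overlapping groups. The confidence interval of Ndufv1 ran from -0.11 to 0.39 and that of Ndufs1 from -0.21 to 0.48.

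Complex II, succinate dehydrogenase, links the tricarboxylic acid cycle to the quinone pool. Its 4 genes all had overlapping groups, and 0 passed. Over all genes, 18.6% had all deficient arrays below both controls, 16.5% had them above both, and 2.24% passed. The complex II counts are thus no result about its genes. Sdha, the flavoprotein, read 11.55 and 11.66 in controls and 11.58, 11.78 and 11.69 in deficient cells (mean difference 0.08, SE 0.12, interval -0.20 to 0.37). Sdhb, the iron-sulphur subunit, differed by -0.17 (SE 0.15), and its control 2 read 12.26 where the other arrays lay between 11.82 and 12.03. The membrane anchors Sdhc and Sdhd differed by -0.07 (SE 0.21) and 0.02 (SE 0.11).

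Complex III passes electrons from quinol to cytochrome c, and 0 of its 9 genes passed. The 5 small subunits had a median of -0.24, while the 4 catalytic and core-protein genes had a median of 0.01. Uqcrh, the acidic hinge protein at the cytochrome c docking site, read 10.83 and 10.98 in controls and 10.21, 10.41 and 10.16 in deficient cells. The groups did not overlap and the difference was -0.64 (SE 0.13, limma adjusted p = 0.067); its other probe set differed by -0.47. Uqcr10 differed by -0.27 on its brightest probe set and by -0.66 and -0.40 on the others, all without overlap. Uqcr11 differed by -0.24. Cyc1, which carries the cytochrome c1 haem, differed by 0.13 (SE 0.12), and the Rieske iron-sulphur protein Uqcrfs1 by -0.15 (SE 0.13), both with overlapping groups.

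Complex IV, cytochrome c oxidase, reduces oxygen to water, and its nuclear subunits include tissue-restricted isoforms. Of its 19 genes 1 fell (Cox6a2), 0 rose and 18 did not pass. On the brighter Cox6a2 probe set, controls read 7.46 and 7.18 and deficient cells 6.15, 5.78 and 6.26. Every deficient array was below both controls, and the means differed by -1.26 (SE 0.18, interval -1.70 to -0.82), or 2.39-fold lower. The adjusted p was 0.0341 over genes and 0.0607 over probe sets (limma). The dimmer probe set read 5.75 and 5.71 in controls and 4.37, 4.49 and 4.76 in deficient cells, so that the means differed by -1.19 (SE 0.15, adjusted p = 0.0456 over probe sets). The groups were separate on both probe sets. With any single array left out, the difference ran from -1.40 to -1.12 and the call was lost (adjusted p between 0.063 and 0.131).

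**Figure D3:**
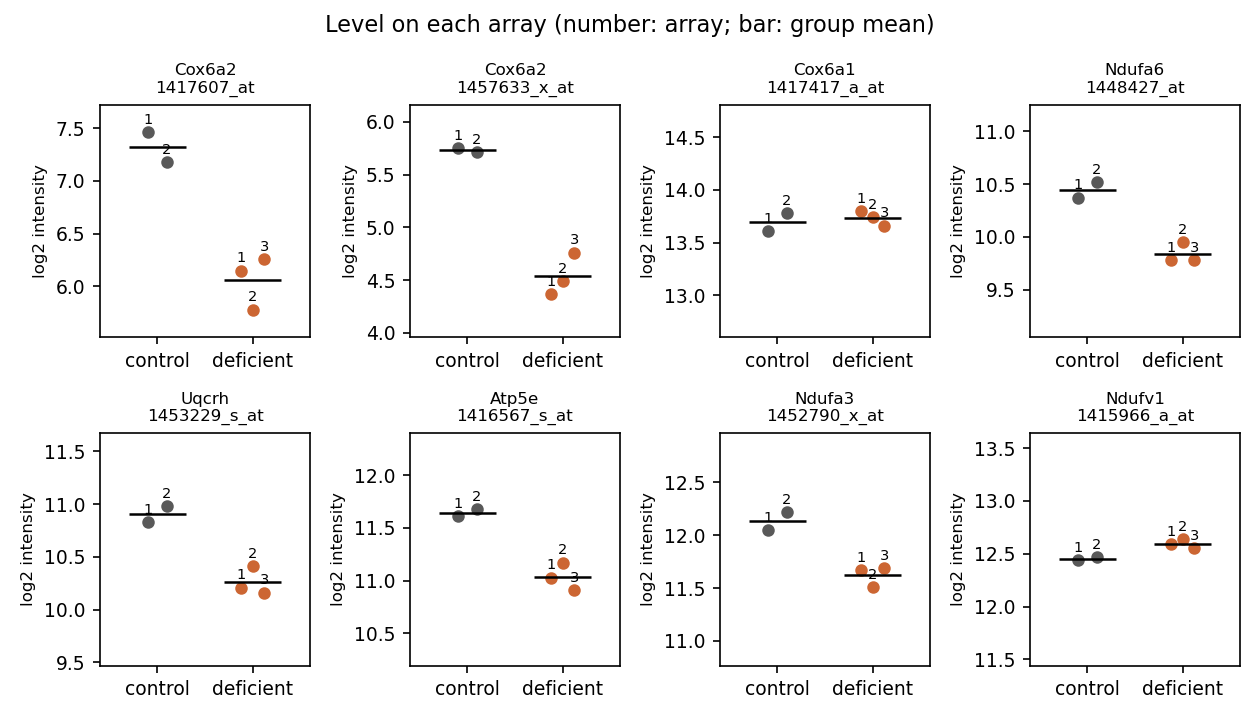
Log2 intensity (vertical axis) on each control and deficient array (horizontal axis) for 8 probe sets: both of Cox6a2, and those of Cox6a1, Ndufa6, Uqcrh, Atp5e, Ndufa3 and Ndufv1. Numbers name the arrays, bars are group means and all panels span the same range. Cox6a2 shows the widest gap (-1.26 and -1.19), Ndufa6, Uqcrh, Atp5e and Ndufa3 gaps of -0.64 to -0.51, and the groups of Cox6a1 overlap.

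Cox6a1, the ubiquitous isoform of the same subunit, read 13.61 and 13.78 in controls and 13.80, 13.74 and 13.66 in deficient cells, with overlapping groups (difference 0.04, SE 0.12, interval -0.24 to 0.32). Cox6a2 is best known from heart and skeletal muscle and is also known from plasmacytoid dendritic cells. Of 8 muscle marker genes 0 passed, and 4 read below the array medians on every array. The log2 of the summed intensities of all 8 was 7.57 and 7.70 in controls and 7.47 to 7.59 in deficient cells. Such a sum is set mostly by the brightest genes of a list. Of 8 plasmacytoid dendritic cell genes, a list added after the values were seen, 2 fell: Ccr9 fell by 2.35 and Ly6d fell by 1.96. Siglech, a defining marker of that cell type, read 4.67 and 4.87 in controls and 4.60, 4.65 and 4.75 in deficient cells, close to the array medians throughout. The log2 of the summed intensities of the plasmacytoid list was 10.84 and 10.52 in controls and 10.36 to 10.40 in deficient cells. Its brightest gene, Tcf4, read 10.26 and 9.63 in controls and 9.67 to 9.71 in deficient cells, and did not pass (limma, adjusted p = 0.582). For mature granulocyte genes the same measure was 15.60 and 15.89 in controls and 10.38 to 11.20 in deficient cells. The part of these cell types in the Cox6a2 value was not tested.

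The other tissue-restricted or conditional isoforms did not pass. Cox4i2, Cox7a1, Cox7b2 and Cox8b, of lung, muscle and testis type, read below the array median. Of these, Cox7a1, a muscle isoform, read 4.52 and 4.20 in controls and 3.95, 3.72 and 4.19 in deficient cells (mean difference -0.41, SE 0.18, adjusted p = 0.307). Cox6b2, Cox8c and Ndufa4l2 differed by 0.09, -0.01 and 0.06 with overlapping groups.

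The 10 ubiquitous subunits of complex IV had a median difference of -0.08. Cox4i1, the largest nuclear subunit, read 13.59 and 13.64 in controls and 13.49, 13.57 and 13.57 in deficient cells (-0.07, SE 0.10). Cox5a differed by 0.14 (SE 0.12), and its 3 probe sets by 0.14 to 0.15. Cox8a, the smallest subunit, read 9.70 and 9.82 in controls and 9.34, 9.39 and 9.49 in deficient cells. Its groups did not overlap (difference -0.35, SE 0.11, adjusted p = 0.17). Cox7a2l, which joins complexes III and IV in supercomplexes, read 13.66 and 13.47 in controls and 12.98, 13.32 and 13.31 in deficient cells. All its 3 probe sets had separate groups (differences -0.46 to -0.36), with adjusted p = 0.276 on the brightest. Deficient 1 was the lowest array in each.

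Complex V had 17 member genes, of which 0 passed, with a median of -0.11 (-0.01 without control 2 and -0.19 without deficient 2). The 5 genes of the membrane part had a median of -0.30. All deficient arrays lay below both controls for 4 of them, as they did for 18.6% of all genes. The 5 genes of the F1 head and central stalk had a median of -0.06. The catalytic-head genes Atp5a1 and Atp5b, for the alpha and beta subunits, differed by 0.07 (SE 0.10) and 0.09 (SE 0.11). Atp5e, the epsilon subunit of the central stalk, had the lowest difference among the 5 F1 genes, at 11.61 and 11.68 in controls and 11.03, 11.17 and 10.91 in deficient cells. Its groups were separate, with a difference of -0.61 (SE 0.12, limma adjusted p = 0.068). Atp5d, the delta subunit of the same stalk, also had all deficient arrays below both controls, with differences of -0.16 on its brightest probe set (limma adjusted p = 0.562) and -0.36 on the other (adjusted p = 0.299 over probe sets).

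The membrane subunit genes Atp5l (subunit g) and Atp5k (subunit e), whose proteins help the synthase to form dimers, differed by -0.37 (SE 0.13, adjusted p = 0.189) and -0.35 (SE 0.15, adjusted p = 0.28). Atp5l read 10.05 and 10.23 in controls and 9.89, 9.73 and 9.68 in deficient cells. Atp5k read 11.75 and 12.07 in controls and 11.63, 11.41 and 11.64 in deficient cells. In both, all deficient arrays were below both controls. Atp5j2, subunit f, differed by -0.30 and -0.46 on its bright probe sets and by 0.14 on a dimmer one.

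Within 3 complexes, subunits of different roles had different medians, a split described after the values were seen and not tested. The accessory subunits of complex I lay below its core, the small subunits of complex III below its other genes, and the membrane part of complex V below F1. The c-ring (3 genes) and the peripheral stalk (4 genes) of complex V, both with a median of -0.09, lay between the latter pair. In the complex I core, the 3 quinone-reducing genes had a median of -0.14, near the -0.19 of the accessory subunits. The 3 NADH-oxidising genes had a median of 0.14. Each of the 3 role contrasts kept its direction when either control was left out. Both sides of a contrast share arrays, and the split came from these values, so this gives no separate support. Without control 2 the accessory and core medians of complex I were -0.04 and 0.01, the small-subunit and other medians of complex III were -0.14 and 0.10, and the membrane and F1 medians of complex V were -0.19 and 0.03. Without control 1 the same pairs were -0.29 and -0.19, -0.27 and -0.08, and -0.39 and -0.14. As a measure of RNA quality, the beta-actin 3′ minus 5′ log2 signal was 3.16 and 3.12 in controls and 3.34 to 3.53 in deficient cells, and that of Gapdh 4.57 and 4.71 against 4.45 to 4.87. The 18S ribosomal RNA signal was 10.45 and 10.36 in controls and 9.70 to 9.87 in deficient cells. The beta-actin and 18S groups did not overlap, and the part of RNA quality was not tested.

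Where a gene had several probe sets, they mostly read alike. Of 49 such genes, 32 had differences within 0.2 log2 units of each other and 36 had all probe sets of 1 sign. The widest range was that of Ndufab1, the mitochondrial acyl carrier protein, from -0.15 on its brightest probe set to 0.53 on a dimmer one. The brightest probe set of Cox7c varied most within groups, at 6.64 and 7.76 in controls and 6.75, 8.02 and 6.44 in deficient cells (SE 0.53), so little can be read from it. In all, 5 member genes read below the array median, and RMA compresses differences there.

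Beyond the members, 103 genes that build, feed or regulate the chain were followed in the same fit. Of these, 1 rose, 0 fell and 102 did not pass, against the background of 0.83% of genes higher and 1.41% lower. The gene that rose was Pprc1, a coactivator related to PGC-1 that acts with NRF1 on nuclear genes for mitochondria. It read 8.33 and 8.58 in controls and 9.55, 9.26 and 9.49 in deficient cells. It was 1.97-fold higher (difference 0.98, SE 0.14), with a limma adjusted p of 0.0356 over genes and 0.0612 over probe sets. All deficient arrays lay above both controls, and the call was lost with any single array left out (0.85 to 1.10, adjusted p between 0.0628 and 0.131). Polrmt, the mitochondrial RNA polymerase, differed by 0.82 (adjusted p = 0.0534), at 8.91 and 9.04 in controls and 9.98, 9.59 and 9.82 in deficient cells. Of the 20 biogenesis genes 12 had higher means, and the median was 0.08.

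Of the 13 subunits encoded in mitochondrial DNA, 1 had a probe set under its name, ND5 of complex I. It read 11.34 and 11.15 in controls and 11.80, 11.94 and 11.85 in deficient cells. The groups did not overlap and the difference was 0.62 (SE 0.12, adjusted p = 0.0615), the opposite sign to the median of the nuclear subunits.

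Among 15 complex I assembly factors 0 passed (median -0.02). Ndufaf4 read 9.02 and 9.70 in controls and 10.26, 10.24 and 10.13 in deficient cells (mean difference 0.85, adjusted p = 0.0983), while Ndufaf8 differed by -0.47 (adjusted p = 0.104). Of 29 assembly factors of complexes II to V 0 passed, with a median of -0.14 and lower means in 21. Pet100, which acts in the assembly of cytochrome c oxidase, differed by -0.60 (adjusted p = 0.0982) and Sdhaf4, an assembly factor of complex II, by -0.57 (adjusted p = 0.111).

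Of 16 genes of electron carriers and quinone synthesis 0 passed (median 0.07). Coq8a, an atypical kinase needed for coenzyme Q synthesis, read 9.79 and 9.24 in controls and 8.33, 8.64 and 8.74 in deficient cells (mean difference -0.94, adjusted p = 0.083). Dhodh, which passes electrons from pyrimidine synthesis to quinone, differed by 0.31 (adjusted p = 0.361). Of 13 tricarboxylic acid cycle genes 0 passed, with a median of 0.11 and higher means in 10. Dlst and Ogdh, both of the alpha-ketoglutarate dehydrogenase complex, differed by 0.39 (adjusted p = 0.135) and 0.41 (adjusted p = 0.225), with all deficient arrays above both controls. Of 9 carriers of adenine nucleotides and phosphate and uncouplers 0 passed (median -0.02). The adenine nucleotide carrier Slc25a5 differed by 0.22 (adjusted p = 0.375) and its testis form Slc25a31, read below the array median, by -0.41 (adjusted p = 0.411).

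**Figure D4:**
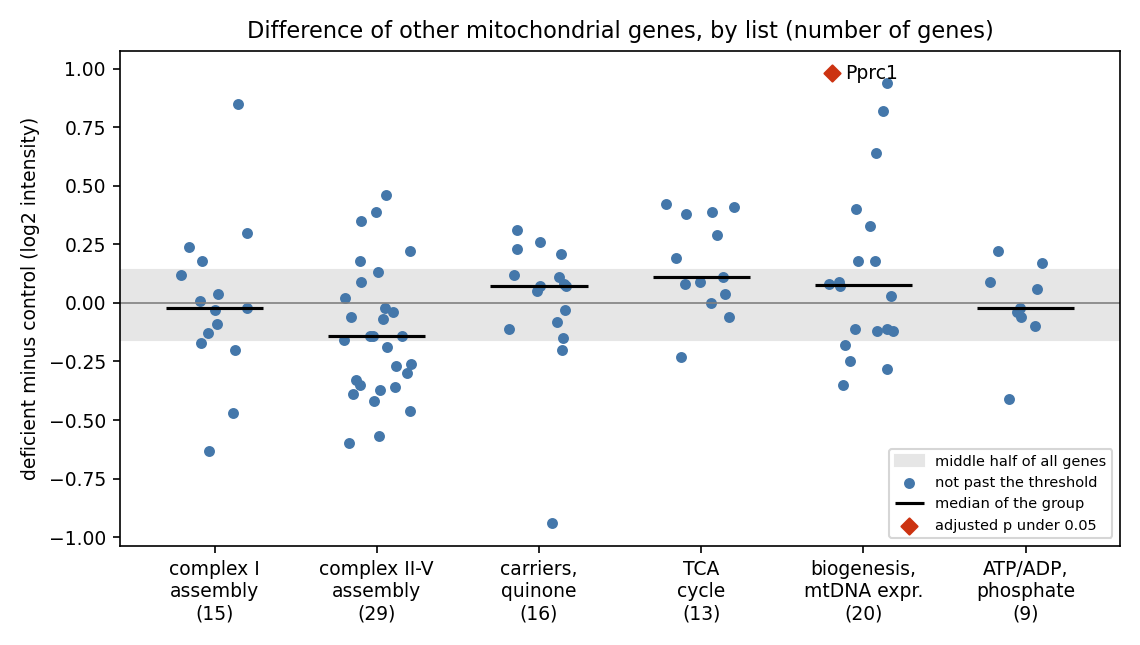
Difference of the other mitochondrial genes between deficient and control arrays (vertical axis, log2 intensity) by list (horizontal axis, with the number of genes measured). Points are genes, black bars list medians from -0.14 (assembly of complexes II to V) to 0.11 (tricarboxylic acid cycle), with ND5 (0.62), the lone mitochondrially encoded gene, left out, and the grey band the middle quartiles of all genes. Pprc1, the red diamond at 0.98, is the gene past the threshold.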

How the data were processed

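Total RNA was labelled with biotin and hybridised to Affymetrix arrays, per the labels' protocols. The authors deposited 1 linear intensity per probe set and array, made with RMA per the submitters' processing notes (version not given in the sources used here). RMA sets arrays to a common distribution, so a shift of all RNA is not seen, and it compresses dim differences. Deposited intensity values ran from 6.96 to 31249. Log2 was taken here. Arrays carry no read depth, and their number limits precision. Correlations between arrays ran from 0.98 to 0.993.

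Gene symbols came from GEO's annotation of the platform. The 10 probe sets with several symbols, a member's among them, were left out, as were 64 control probe sets. limma 3.58.1 in R 4.3.3 (lmFit, eBayes, two-sided, no covariate) was fitted on all 45037 probe sets and, for genes, on the brightest probe set of each of 18193 genes, with Benjamini-Hochberg adjustment over each. The fit was run on simulated data with independent noise and changes larger than those of nearly all members. That run does not bear on differences as small as theirs. The members, gene lists, tests and alternatives were chosen with earlier results of these data known. Named genes are those past the threshold, the 4 of each complex with the smallest p, core catalytic subunits, complex IV isoforms, the 2 of each other list with the smallest p, targeted genes and markers. Atp5d, Cox6a1, Cox7c, Ndufab1, Xist, Eif2s3y, the other probe sets of named genes and the genes of the closing section were chosen after their values were seen. Names of mitochondrial genes came from RefSeq.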

Additional observations from a re-analysis of the deposited data

How the results depend on the processing

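Cox6a2 and Pprc1 kept their direction under each alternative run, and no value of a named gene changed sign while called. Cox6a2 gave 1 member gene lower in most fits, but 0 with the replicate block, 4 with an intensity trend in eBayes (Atp5e, Cox6a2, Ndufa3 and Uqcrh) and 5 at adjusted p under 0.1. Member probe sets lower were 0 with array weights, with the replicate block and with probe sets ending in _x_at or _s_at left out, and 4 at adjusted p under 0.1. Pathway genes higher were 3 with array weights or an intensity trend, 2 with dim probe sets left out or median centring, 4 with each gene's probe sets averaged, and 0 with the replicate block. Leaving out 1 array at a time gave 0 to 0 member genes lower, 0 to 0 member probe sets lower and 0 to 1 pathway genes higher. The medians then ran from -0.20 to -0.01 for all members, -0.25 to -0.04 for complex I, -0.16 to 0.09 for II, -0.19 to -0.01 for III, -0.12 to -0.05 for IV and -0.19 to -0.01 for V. The labels do not say that equal replicate numbers pair the arrays, and deviations of arrays with the same number correlated at -0.053 and -0.018. With the block, Cox6a2 differed by -1.36 (limma, adjusted p = 0.091) and Pprc1 by 0.95 (adjusted p = 0.175), and the member median was -0.08. Members higher were 0 in every fit. The causes of these changes were not tested. Fewer arrays or a block also leave fewer degrees of freedom, and the part of this in the lost calls was not tested.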

Other observations

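ATP synthase inhibitory factor, Atpif1, whose protein blocks the synthase when it runs in reverse, lies outside the members by its symbol. Its bright probe set read 11.68 and 12.06 in controls and 11.90, 11.77 and 11.93 in deficient cells, with overlapping groups. A dimmer probe set read 6.09 and 5.97 in controls and 6.63, 6.32 and 6.65 in deficient cells, a difference of 0.50 (limma, adjusted p = 0.189), and the dimmest differed by -0.02.

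Probe sets that carry several symbols, a subunit's among them, give values for genes that are thinly covered otherwise. The brighter probe set shared by Ndufb4, Ndufb4b and Ndufb4c read 11.08 and 11.32 in controls and 11.17, 11.08 and 10.91 in deficient cells, and the other differed by -0.16. The probe set shared by Ndufs6 and Ndufs6b differed by -0.25, and those shared by Ndufa11 and Ndufa11b by -0.11 and 0.25. None of the 10 such probe sets had separate groups, and several of them share the same genes. Over all genes, 18.6% had all deficient arrays below both controls and 16.5% above both. Overlap was thus the more common case, and the count is no result about these probe sets.

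Ppargc1b, which encodes a coactivator of the same family as Pprc1 and was picked out after its values were seen, read 5.63 and 6.04 in controls and 6.93, 6.61 and 6.79 in deficient cells. The groups did not overlap. The difference of 0.94 (SE 0.17) did not pass over genes (limma, adjusted p = 0.0543) or over all probe sets (adjusted p = 0.0882). Ppargc1b is among the 20 biogenesis genes counted above.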
